A study of Mus musculus with 24 samples.

Results

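The slow and fast isoforms of troponin and tropomyosin were examined in the *M. gastrocnemius* of mice breathing normal or reduced oxygen. The members were all non-control array probes carrying the gene names *Tnni1*, *Tnnt1*, *Tnnc1*, *Tnni2*, *Tnnt3*, *Tnnc2*, *Tpm1*, *Tpm2* or *Tpm3*, which gave 9 of 34797 gene names and 19 of 55681 probes. The mice were male C57BL/6JOlaHsd animals that arrived at 10 weeks of age, ate a low-fat diet with 10% of energy from fat for 3 weeks and then a high-fat diet with 40% of energy from fat for 6 weeks. All were fasted before the exposure. The 12 Norm mice spent 6 h at 20.9% oxygen and the 12 Hypox mice spent 6 h at 12% oxygen, after which total RNA of the whole muscle was hybridised, 1 mouse per array. On each array the Cy5 channel held the RNA of 1 mouse and the Cy3 channel a pool made from all the samples. Each value is a normalised log2 ratio of the mouse to the pool, and a step of 1 is a doubled ratio. Strain, sex, diet and fasting were shared by both groups.

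Muscle contraction is switched on at the thin filament. Troponin C binds calcium, troponin I holds the filament off until it does, and troponin T ties both to tropomyosin, the coiled coil that lies along actin. Slow fibres and fast fibres make these proteins from different genes, and the mouse gastrocnemius is mainly a fast muscle with a slow part. *Tnni1*, *Tnnt1* and *Tnnc1* encode the slow troponins I, T and C, the last one also being the form of the heart. *Tnni2*, *Tnnt3* and *Tnnc2* encode the fast ones. *Tpm3* gives the slow alpha-tropomyosin, *Tpm1* the fast alpha-tropomyosin and *Tpm2* the beta form, and the *Tpm* genes also make tropomyosins of smooth muscle and non-muscle cells by alternative splicing.

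The arrays sat on 6 slides, and every slide held 2 Norm with 2 Hypox arrays. Mean Cy5 signal per Norm array ran from 58.3 to 933 and per Hypox array from 63.5 to 1014, and slide 1 was the dimmest with 58.3 to 102. The share of probes well above background in Cy5 was 9.42% to 37.3% in Norm and 12% to 37.8% in Hypox. Of the 19 member probes, 17 passed the filter on dim probes and were tested among 14503 probes. The other two were *Tpm1* probes whose mean Cy5 signal was 1.65 and 1.34 times the local background. All 7 skeletal muscle fibre markers (*Acta1*, *Ckm*, *Myh4*, *Des*, *Mb*, *Ryr1* and *Pygm*) passed. Of 6 cardiac markers the natriuretic peptide genes *Nppa* and *Nppb* and the atrial *Myl7* did not. The cardiac markers *Myh6*, *Tnni3* and *Myl4* passed, at 2.72, 2.19 and 18.2 times background. In whole muscle, fewer cells of a type and less RNA per cell cannot be told apart.

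The probes for *Tnni1* and *Tnnc1*, which carry the results below, are 60 bases long and cross an exon junction, so their ends lie further apart on the genome (mm9) than their length. Both are printed here with the 2 overlapping *Tnnt3* probes, whose 27 shared bases are in capitals.

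*Tnni1*, chr1:137705328-137706203, plus strand: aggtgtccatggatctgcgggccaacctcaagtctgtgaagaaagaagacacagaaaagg
*Tnnc1*, chr14:32023360-32023776, plus strand: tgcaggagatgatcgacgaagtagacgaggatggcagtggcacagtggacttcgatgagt
*Tnnt3*, leading probe, chr7:149698467-149698526, plus strand: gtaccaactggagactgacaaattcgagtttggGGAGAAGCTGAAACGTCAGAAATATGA
*Tnnt3*, other probe, chr7:149698500-149700262, plus strand: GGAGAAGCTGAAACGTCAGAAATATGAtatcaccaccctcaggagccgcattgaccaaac

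The first comparison asks whether the thin filament messengers differ between Hypox and Norm. With the leading probe of each gene, the one with the highest mean intensity, 2 of the 9 genes were higher in Hypox and 0 were lower at an unadjusted *P*-value of 0.05, the threshold of the study. Over all 14503 probes that rule called 13.8%, of which 7.41% were higher and 6.41% lower. The 2 genes were *Tnni1* and *Tnnc1*, both slow. After Benjamini-Hochberg adjustment over all probes none of the 9 genes passed in limma, against 0.931% of all probes. The median difference over the 9 genes was -0.12 and that over all probes was 0.022 on the log2 scale.

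*Tnni1*, the slow inhibitory subunit, gave the largest difference of the 9 genes. Its log2 ratios ran from -2.10 over a median of -0.83 to 0.16 in Norm and from -0.72 over -0.32 to 0.00058 in Hypox. All 12 Hypox arrays lay above the Norm median, but the groups overlapped, and Norm replicate 12 had the highest value of all 24. The difference was 0.61 ± 0.17 (SE, 12 against 12, limma), a 1.53-fold higher level, with a 95% confidence interval of 0.27 to 0.95, an unadjusted *P*-value of 0.00106 and an adjusted *P*-value of 0.0739. With the slide as a block the difference was the same and the adjusted *P*-value became 0.0433. Within slides the difference was 0.51, 1.30, 0.79, -0.021, 1.07 and 0.0066 for slides 1 to 6, so slides 4 and 6 showed hardly any difference. When single arrays were left out, the adjusted limma *P*-value lay between 0.012 (without Norm replicate 12) and 0.128 (without Norm replicate 3). When single slides were left out, it lay between 0.0471 (without slide 6) and 0.296 (without slide 2, at an unadjusted 0.0146).

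*Tnnc1*, the calcium-binding subunit of slow fibres, moved the same way. Its log2 ratios ran from -2.17 over -0.75 to 0.48 in Norm and from -0.83 over -0.40 to 0.069 in Hypox. Of the 12 Hypox arrays 11 lay above the Norm median and none above the highest Norm array. The difference was 0.44 ± 0.18 (SE, limma) with a 95% confidence interval of 0.062 to 0.82, an unadjusted *P*-value of 0.0242 and an adjusted *P*-value of 0.277. It was positive within 5 of 6 slides, from -0.14 on slide 6 to 1.27 on slide 5. The call rested on the slides with the larger differences, since the limma *P*-value was 0.121 without slide 2 and 0.117 without slide 5.

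*Tnnt1*, the slow tropomyosin-binding subunit, has 2 probes near its 3′ end with at most 6 bases in common. The leading probe ran from -2.04 over 0.22 to 1.11 in Norm and from 0.23 over 0.39 to 1.29 in Hypox. All 12 Hypox arrays lay above the Norm median. Its difference of 0.38 ± 0.25 (SE, limma) did not pass, with an unadjusted *P*-value of 0.131, and it was positive within 3 of 6 slides. It was 0.19 without Norm replicate 5 and 0.16 without slide 5. It passed unadjusted in 2 of 14 other settings, the Cy5 channel by itself (0.48, limma *P*-value 0.0328) and the mean of both probes (0.44, 0.0446). Neither passed adjustment. The other probe gave 0.50 ± 0.22 with an unadjusted *P*-value of 0.0301 and an adjusted *P*-value of 0.302, and was positive within 5 of 6 slides. That second call was lost in limma without Norm replicate 3 (*P*-value 0.0568), Norm replicate 5 (0.0648), Norm replicate 9 (0.0532), Hypox replicate 12 (0.0635), slide 2 (0.153) or slide 5 (0.101). With all arrays kept it held in 11 of 12 other settings, and was lost with median centring (limma *P*-value 0.0974).

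**Figure D1:**
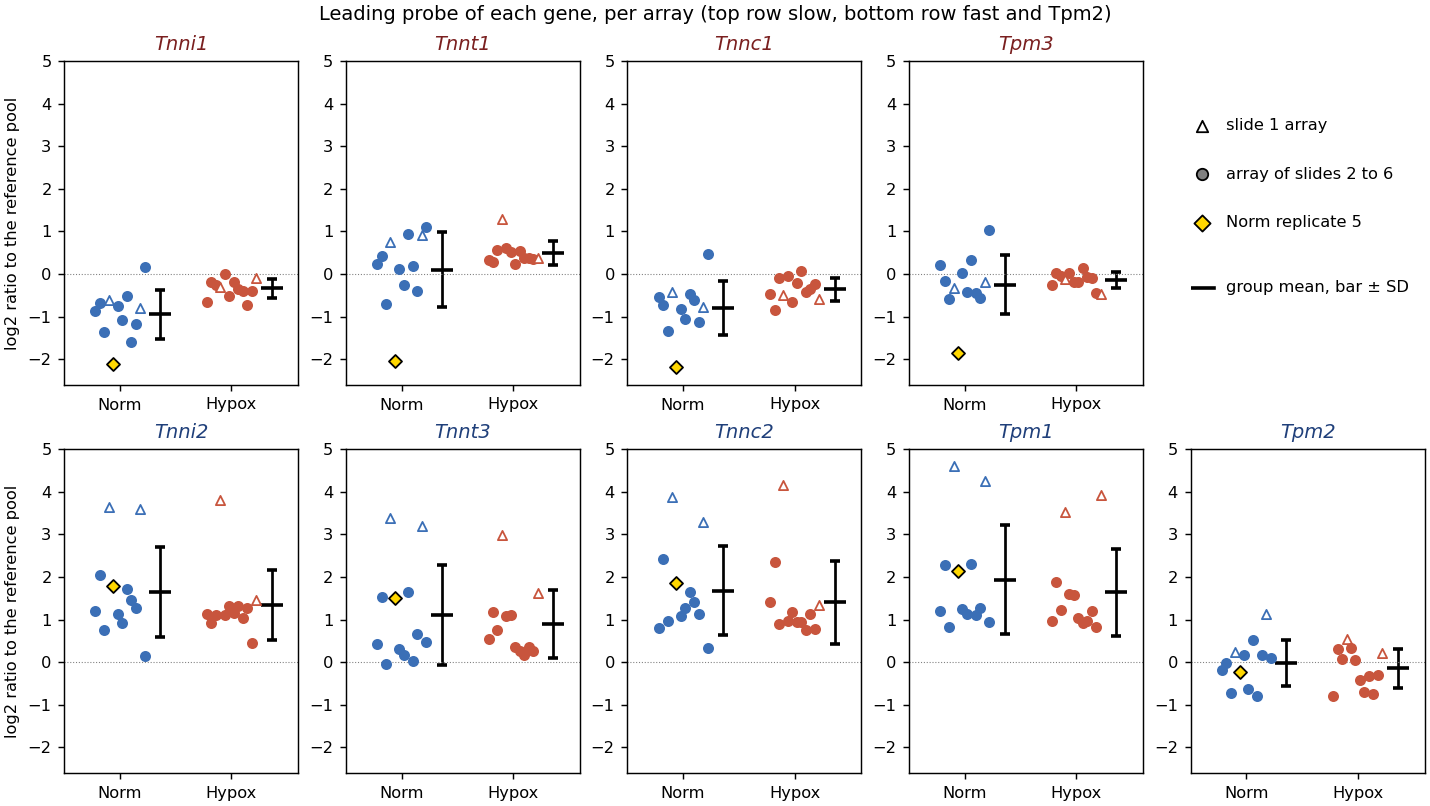
Log2 ratio to the reference pool (vertical axis) of the leading probe of each gene on each of the 24 arrays, Norm in blue and Hypox in red, with the group mean and SD as bars. Triangles are the 4 arrays of slide 1 and the yellow diamond is Norm replicate 5, which lies at -2.10 for *Tnni1* and among the other Norm arrays for the fast genes.

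The slow tropomyosin gene *Tpm3* did not follow in the group comparison. Its leading probe ran from -1.86 over -0.26 to 1.03 in Norm and from -0.47 over -0.093 to 0.15 in Hypox. The Hypox values lay wholly inside the Norm range. The difference was 0.11 ± 0.19 (SE, limma) with a 95% confidence interval of -0.28 to 0.50 and an unadjusted *P*-value of 0.574, and it turned to -0.038 without Norm replicate 5 and to -0.028 without slide 5. The other *Tpm3* probes gave -0.10 ± 0.097 and -0.068 ± 0.16, with unadjusted limma *P*-values of 0.293 and 0.681.

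The fast troponins gave differences below 0 with the loess-normalised ratios, and none passed. *Tnni2*, the fast inhibitory subunit, ran from 0.14 over 1.38 to 3.64 in Norm and from 0.44 over 1.14 to 3.82 in Hypox, with a difference of -0.30 ± 0.35 (SE) and an unadjusted limma *P*-value of 0.401. *Tnnc2*, the fast calcium-binding subunit, ran from 0.33 over 1.34 to 3.88 in Norm and from 0.76 over 1.05 to 4.16 in Hypox, with a difference of -0.27 ± 0.38 and a *P*-value of 0.474. *Tnnt3*, the fast tropomyosin-binding subunit, ran from -0.039 over 0.57 to 3.39 in Norm and from 0.17 over 0.66 to 2.98 in Hypox, with a difference of -0.22 ± 0.38 and a *P*-value of 0.565. The groups overlapped almost fully for all 3 genes. The other *Tnnt3* probe, which shares the capitals printed above, gave -0.33 ± 0.28 with a *P*-value of 0.252. The sizes moved with single arrays of slide 1. Without Norm replicate 4 the differences of *Tnni2*, *Tnnc2* and the leading *Tnnt3* probe were -0.12, -0.073 and -0.012, and without Hypox replicate 4 they were -0.53, -0.52 and -0.41.

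Much of the spread of these ratios lay between slides. On the 4 arrays of dim slide 1 the mean log2 ratio was 3.13 for *Tnni2*, 2.80 for *Tnnt3* and 3.17 for *Tnnc2*, against 1.16, 0.64 and 1.21 on the other 20 arrays. Between-slide differences made up 71.4%, 78.1% and 64% of the spread within groups for these 3 genes, and 35.4%, 38.9% and 22.3% for *Tnni1*, *Tnnt1* and *Tnnc1*. The part of array brightness in these ratios was not tested. With the slide as a block the limma *P*-values were 0.167, 0.279 and 0.287 for *Tnni2*, *Tnnt3* and *Tnnc2*.

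The direction of the fast genes depended on the scaling. In the scanner software's own ratios, where the SD of the 3 fast troponins within groups was 0.13 to 0.27 in place of 0.80 to 1.18, the differences were 0.13 for *Tnni2*, 0.20 for *Tnnt3* and 0.039 for *Tnnc2*, with unadjusted limma *P*-values of 0.216, 0.0491 and 0.595. In the deposited log2 intensities they were 0.38, 0.45 and 0.38, none passing. The slow genes kept their sign in all 6 ways of processing, with *Tnni1* at 0.60 to 0.86 and *Tnnc1* at 0.43 to 0.70. Median centring without loess shifted the median difference of all probes to 0.24, beside 0.86 for *Tnni1* and 0.70 for *Tnnc1*, and no member passed there.

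**Figure D2:**
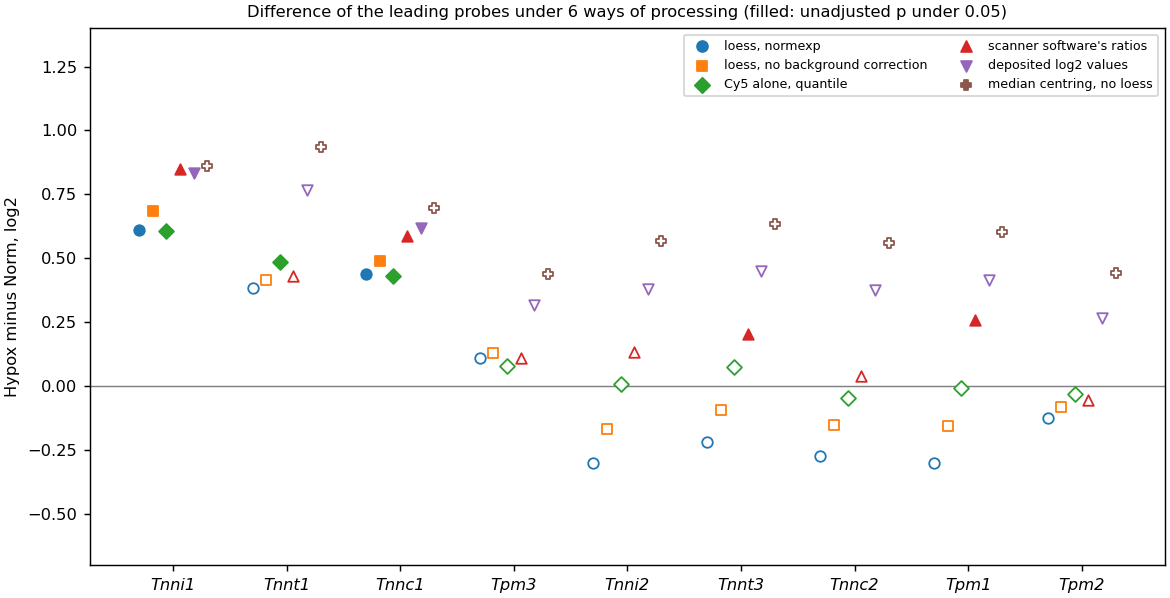
Hypox minus Norm difference on the log2 scale (vertical axis) of the leading probe of each gene under 6 ways of processing the same arrays, filled where the unadjusted *P*-value was under 0.05. *Tnni1*, *Tnnt1* and *Tnnc1* lie above 0 in all 6, while *Tnni2* runs from -0.30 to 0.57.

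*Tpm1*, the fast alpha-tropomyosin gene, has 6 probes. Of the 4 tested, none passed in the loess-normalised ratios. The 2 brightest, which share 46 bases and lie in the same 3 listed transcripts, ran from 0.83 over 1.26 to 4.61 in Norm and from 0.82 over 1.21 to 3.92 in Hypox for the leading one, with full overlap. They gave differences of -0.30 ± 0.43 and -0.35 ± 0.38 (SE), with unadjusted limma *P*-values of 0.49 and 0.361. Without Norm replicate 4 they were -0.060 and -0.095. With the slide as a block the second of them reached a *P*-value of 0.0487, and in the scanner software's ratios they turned to 0.26 and 0.087 with *P*-values of 0.0136 and 0.29.

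The 4 dimmer *Tpm1* probes lay on both sides of 0. One of the 2 that passed the filter ends on the stop codon of a form whose last exon is used mainly outside striated muscle, shown with its stop codon in capitals.

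*Tpm1*, chr9:66871166-66871225, minus strand (mm9): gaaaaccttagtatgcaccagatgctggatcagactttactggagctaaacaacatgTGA

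This probe gave 0.19 ± 0.11 (SE, limma) with an unadjusted *P*-value of 0.0816, at 2.13 times background and well above background on 4 Norm and 6 Hypox arrays. It reached 0.0236 in the scanner software's ratios and 0.0482 without background correction. A probe at 4.17 times background, in 2 other listed transcripts, gave 0.15 ± 0.082 with a *P*-value of 0.0852, and 0.0428 with the slide as a block. Neither call was made after adjustment. The 2 probes under the filter gave -0.23 (*P*-value 0.00632) and 0.019 (0.772) in limma without the filter, the first of them well above background on 6 Norm and 2 Hypox arrays. The difference between bright and dim *Tpm1* probes was not tested. *Tpm2*, the beta form, gave -0.12 ± 0.19 and -0.13 ± 0.14 with its 2 probes and *P*-values of 0.526 and 0.345. The smooth muscle markers *Myh11*, *Acta2*, *Tagln*, *Cnn1* and *Smtn*, of a tissue that uses *Tpm1* and *Tpm2* too, had a median difference of -0.10. With *Actg2* under the filter, 0 of these 5 were called, beside 13.8% of all probes. Their mean log2 ratio ran from -0.38 to 0.27 over the Norm arrays and from -0.42 to 0.022 over the Hypox arrays, and their part in the tropomyosin values was not tested.

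**Figure D3:**
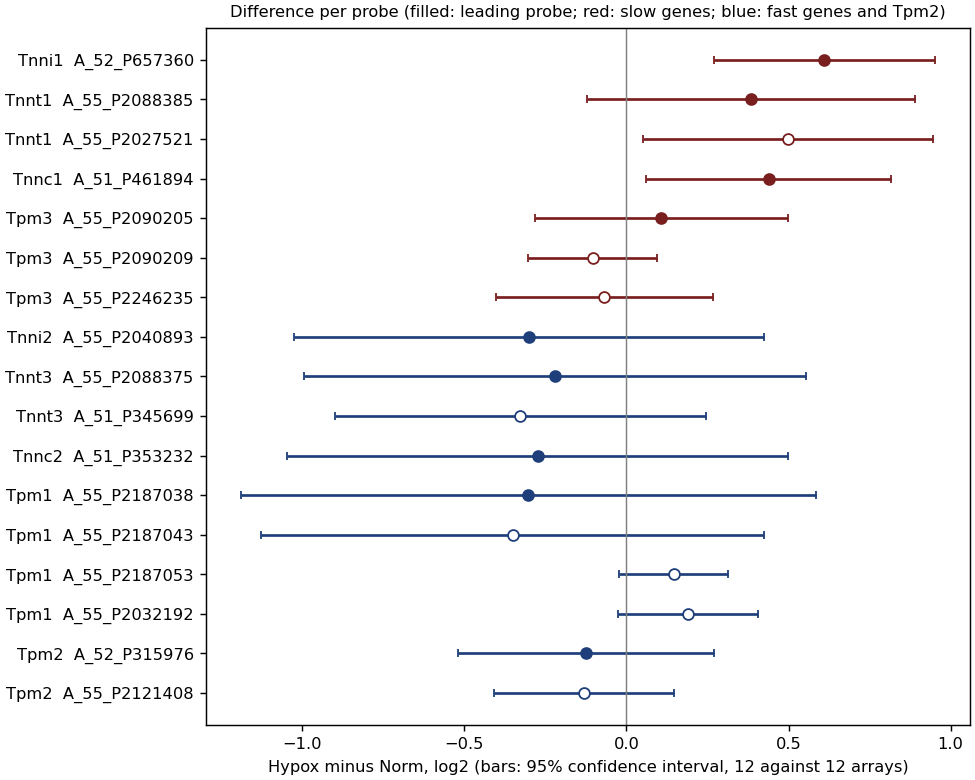
Hypox minus Norm difference on the log2 scale (horizontal axis) with its 95% confidence interval for the 17 tested probes, slow genes in red, fast genes and *Tpm2* in blue, leading probes filled. The intervals of *Tnni1*, *Tnnc1* and the second *Tnnt1* probe lie above 0.

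Slow and fast isoforms of each subunit were set side by side as a difference of log2 ratios within an array, given as a description. For troponin I (*Tnni1* minus *Tnni2*) it averaged -2.59 ± 1.21 over the Norm and -1.68 ± 0.84 over the Hypox arrays (mean ± SD, 12 each). For troponin T (*Tnnt1* minus *Tnnt3*) it averaged -1.002 ± 1.23 and -0.40 ± 0.61, and for troponin C (*Tnnc1* minus *Tnnc2*) -2.47 ± 1.27 and -1.76 ± 1.11. The group means therefore differed by 0.91, 0.60 and 0.71 log2 units, each less than the SD of the Norm arrays. These means and SDs include dim slide 1, where the 3 differences averaged -3.58, -1.96 and -3.74, against -1.84, -0.45 and -1.80 on the other arrays. Of the 12 Hypox arrays 11, 9 and 10 lay above the Norm median. Within slides the shift was positive on 5, 5 and 4 of 6 slides, and negative on slide 6 for all 3 subunits (-0.45, -0.18 and -0.29). For the alpha-tropomyosins (*Tpm3* minus *Tpm1*) the shift was 0.41, and it changed sign to -0.15 in the scanner software's ratios, -0.099 in the deposited intensities and -0.16 with median centring, while the 3 troponin shifts stayed between 0.14 and 0.72 under those and the Cy5-alone processing.

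**Figure D4:**
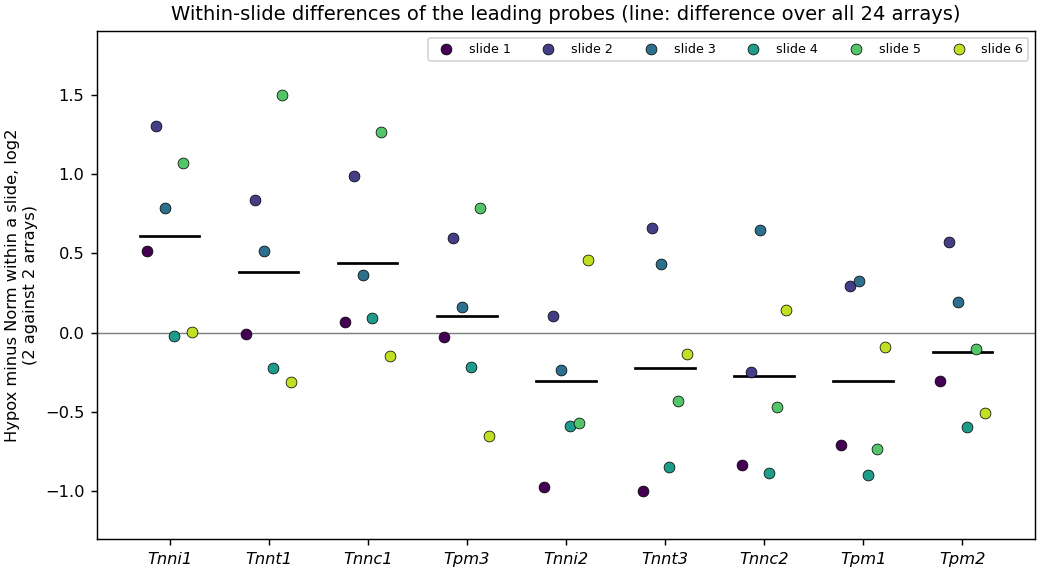
Hypox minus Norm difference within each slide, 2 against 2 arrays, on the log2 scale (vertical axis) for the leading probes, with the difference over all 24 arrays as a line. Slides 2 and 5 hold the largest differences of *Tnnt1* and *Tnnc1* (up to 1.497 and 1.27) and slides 4 and 6 lie near 0 for *Tnni1*.

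The slow genes also differed in spread. The SD in Norm was 0.58 for *Tnni1*, 0.88 for *Tnnt1*, 0.63 for *Tnnc1* and 0.68 for *Tpm3*, and in Hypox it was 0.22, 0.28, 0.27 and 0.18. The Norm SD was thus 2.67, 3.18, 2.37 and 3.70 times the Hypox SD, beside a median ratio of 0.939 over all tested probes. Norm replicate 5, an array of slide 5, was the lowest for all 4 genes, at -2.10, -2.04, -2.17 and -1.86, and Norm replicate 12 was the highest Norm array for all 4, at 0.16, 1.11, 0.48 and 1.03. Without Norm replicate 5 the ratios of SDs were 2.17, 2.15, 1.81 and 2.60. The difference in spread was not tested.

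Over all 24 arrays the members other than *Tpm2* fell into 2 sets by how they varied from array to array, slide differences included. After the group means were removed, Pearson's r over 24 arrays was 0.78 to 0.86 among *Tnni1*, *Tnnt1*, *Tnnc1* and *Tpm3*, and Spearman's rho was 0.59 to 0.72. Among *Tnni2*, *Tnnt3*, *Tnnc2* and *Tpm1* r was 0.83 to 0.94. Between a gene of the first and one of the second set r ran from -0.18 to 0.38. *Tpm2* lay in neither set, with r of 0.51, 0.48, 0.11 and 0.22 with *Tnni1*, *Tnnt1*, *Tnnc1* and *Tpm3*. Its r with *Tnni2*, *Tnnt3*, *Tnnc2* and *Tpm1* was 0.52, 0.75, 0.51 and 0.68. Without Norm replicate 5 r among *Tnni1*, *Tnnt1* and *Tnnc1* was 0.64 to 0.66, and r of *Tpm3* with them was 0.73, 0.62 and 0.75. In the same 23 arrays r of *Tnnt1* with *Tnni2*, *Tnnt3*, *Tnnc2* and *Tpm1* was 0.53, 0.66, 0.48 and 0.53, so *Tnnt1* no longer stood apart from the fast genes, while r of *Tnni1*, *Tnnc1* and *Tpm3* with the same 4 genes ran from -0.21 to 0.33. With the slide means removed too, the slow set kept r of 0.65 to 0.90 and the 3 fast troponins kept 0.63 to 0.84. Meanwhile r of *Tpm1* with *Tnni2* and *Tnnc2* fell from 0.85 to 0.074 and from 0.83 to 0.20. Its r with *Tnnt3* fell from 0.94 to 0.55, and with the slow set it was then -0.62 to -0.37. Between-slide differences made up 90.5% of the spread of *Tpm1* within groups, so it grouped with the fast troponins mostly by slide. All points share the reference pool and the loess step, so r is a description with no test.

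**Figure D5:**
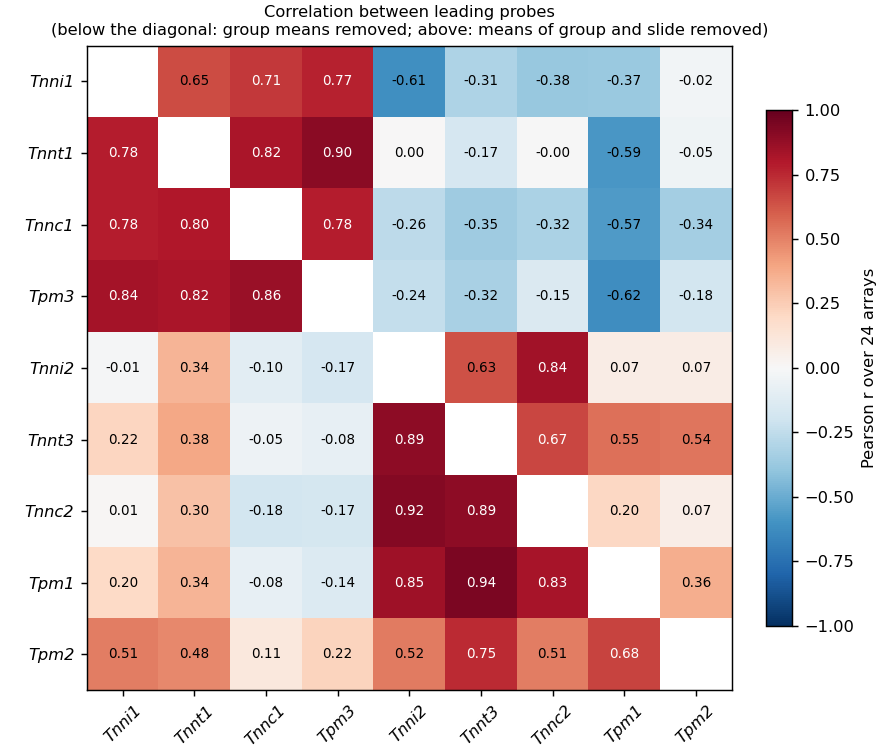
Pearson's r between leading probes over 24 arrays (colour and numbers), with group means removed below the diagonal and the means of group and slide removed above it. The block of *Tnni1*, *Tnnt1*, *Tnnc1* and *Tpm3* is 0.65 or more on both sides.

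The 3 *Tpm3* probes did not share this pattern. The leading probe and the one nearest the start of the gene followed the mean of the slow troponins with r of 0.90 and 0.84. The third probe, in 3 listed transcripts and the farthest along the gene, had r of -0.030. The first 2 are printed here because they are the part of *Tpm3* that varied with the slow troponins.

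*Tpm3*, near the start, chr3:89877669-89877728, plus strand (mm9): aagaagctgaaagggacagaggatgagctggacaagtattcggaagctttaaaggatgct
*Tpm3*, leading probe, chr3:89892985-89893044, plus strand (mm9): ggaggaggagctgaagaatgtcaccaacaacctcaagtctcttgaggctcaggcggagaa

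The genes with the pattern most like the mean of the slow troponins over 24 arrays, group means removed, were *Myh7* (r = 0.91), the slow myosin heavy chain, *Myh7b* (0.87), *Myl2* (0.85), the slow regulatory light chain, *Ldhb* (0.82), a lactate dehydrogenase subunit of oxidative tissue, *Atp2a2* (0.81), the slow calcium pump, *9930105H17Rik* (0.81), and 2 unnamed probes (0.82 and 0.80). None of the 6 named genes passed the unadjusted threshold between the groups, though *Myh7b* did with the slide as a block (0.049): *Myh7* gave 0.38 ± 0.25 (SE, limma, unadjusted *P*-value 0.149), *Myl2* 0.34 ± 0.19 (0.0927) and *Myh7b* 0.27 ± 0.13 (0.0506). One of the unnamed probes did, with 0.20 ± 0.084 (0.0282). Those most like the fast troponins were *Gm5523* (0.99), *NAP108184-1* (0.98), *Pvalb* (0.98), the calcium buffer of fast fibres, *Pfkm* (0.97), a muscle phosphofructokinase, and *Gm12070* (0.97).

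Other genes of slow fibres were taken from a list of 12. Of these, 12 were tested, 11 had a difference above 0, and the median was 0.28 beside 0.022 over all probes. At the unadjusted threshold 2 were higher and 0 lower, 2 of 12 beside 13.8% of all probes (7.41% higher). With the slide as a block 3 were higher, beside 15.7% of all probes called (1193 of 14503 higher). *Casq2*, the slow calcium store protein, gave 0.27 ± 0.10 (SE, limma, *P*-value 0.0116) and *Cd36*, a fatty acid transporter, 0.29 ± 0.12 (0.022). Their mean log2 ratio per array was lowest on Norm replicate 5, at -1.49, and highest on Norm replicate 12, at 0.17, and ran from -0.32 to 0.12 in Hypox. Whether slow fibre content differed between the muscle samples was not tested.

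Of the 12 fast fibre genes, 12 were tested with a median of -0.25, and 1 was higher and 1 lower, beside the same 13.8% of all probes. *Mylpf*, the fast regulatory light chain, gave 0.36 ± 0.098 (*P*-value 0.000976, limma, adjusted 0.0714) and *Mylk2*, the kinase of that light chain, -0.29 ± 0.097 (0.00541). The *Mylpf* probe read 16.6 times background, beside 1618 for *Myl1* of the same list. Its r with the mean of the fast troponins was 0.035, beside 0.89 for *Myl1* and 0.078 for *Casq1*. *Myh4*, the fastest myosin heavy chain, gave -0.59 ± 0.35 with a limma *P*-value of 0.109, and of 0.00411 with the slide as a block. Under that block 4 fast genes were lower, beside 15.7% of all probes called (1079 of 14503 lower). In Cy5 alone 2 fast genes were lower, and with median centring 0. The fast troponins, with which *Myh4* varied at r of 0.96, changed sign with the scaling.

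Among 20 other thin filament genes 18 were tested, with a median of 0.024, and 1 was higher and 1 lower, beside 13.8% of all probes called. The giant ruler protein *Neb* fell by 1.12 ± 0.19 (SE, limma, adjusted *P*-value 0.0141). This is the leading one of 3 *Neb* probes past the filter, and the others are not given here. *Tnnt2*, the cardiac and embryonic troponin T, rose by 0.18 ± 0.080 (unadjusted limma *P*-value 0.0364) at 2.61 times background. *Nebl* and *Kbtbd13* were under the filter. Of 17 fibre type regulators 16 were tested, none was higher and 2 were lower, 2 of 16 beside the same 13.8% of all probes (6.41% lower). The calcineurin-responsive factor *Nfatc1* differed by -0.26 ± 0.10 (*P*-value 0.0162) and *Tead1*, which binds MCAT elements of muscle genes, by -0.25 ± 0.11 (0.0292), neither passing adjustment. *Prox1* was under the filter.

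Cell type markers moved in a few cases, beside 13.8% of all probes called (7.41% higher and 6.41% lower). *Dcn* and *Col1a2* of 6 fibroblast markers differed by -0.37 and -0.40 (limma *P*-values 0.0316 and 0.0155), *Ryr1* of 7 skeletal muscle markers by -0.56 (0.0157), *Cdh5* of the 2 tested endothelial markers by 0.38 (0.00588), and *Myl4* of the 3 tested cardiac markers by 0.28 (0.0245). None passed adjustment. Of the 6 fibroblast markers 3 lay above 0, *Col3a1*, *Col1a1* and *Lum*, at 0.22, 0.11 and 0.092 (list median 0.046). Of the 7 skeletal muscle markers 3 lay above 0, with a list median of -0.13. Endothelial *Kdr* (-0.15) and cardiac *Myh6* (-0.14) and *Tnni3* (-0.48) lay opposite to *Cdh5* and *Myl4*. For *Tnni3* the limma *P*-value was 0.27, and the SD was 1.63 in Norm against 0.077 in Hypox. Over the Norm arrays the cardiac list mean peaked at 1.77 on replicate 1, beside a median of -0.11. The median differences of the endothelial and cardiac lists were 0.12 and -0.14. With the slide as a block *Dcn* passed adjustment (limma, adjusted *P*-value 0.0242). *Pygm* (unadjusted *P*-value 0.026) and *Myh4* (0.00411) then joined *Ryr1* (0.00517) below the unadjusted threshold. This made 3 of 7 skeletal muscle markers lower, beside 15.7% of all probes called under that block (1079 of 14503 lower). Mean log2 ratios of the fibroblast list ran from -0.46 to 0.24 over the Norm and from -0.46 to 0.47 over the Hypox arrays, and those of the cardiac list from -0.40 to 1.77 and from -0.30 to 0.22. Their part in the members' values was not tested.

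The sequence before the gene start was read for the slow set, since its members varied together over the 24 arrays. RefSeq promoters (GRCm38.p6) held 7 of the 9 members. The 250 bases before the start of *Tnni1* (the upstream of 2 starts), *Tnnt1*, *Tnnc1* and *Tpm3* (the upstream of 2) are printed with matches to the E-box of myogenic factors (CANNTG) and to the MCAT element (CATTCC), on both strands, in capitals.

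*Tnni1*, chr1:135799171-135799420, plus strand: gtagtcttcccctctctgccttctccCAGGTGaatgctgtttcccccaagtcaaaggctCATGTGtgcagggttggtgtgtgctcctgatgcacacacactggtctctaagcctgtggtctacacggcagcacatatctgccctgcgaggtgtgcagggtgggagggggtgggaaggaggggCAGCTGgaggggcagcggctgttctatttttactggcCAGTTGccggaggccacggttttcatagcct
*Tnnt1*, chr7:4515976-4516225, minus strand: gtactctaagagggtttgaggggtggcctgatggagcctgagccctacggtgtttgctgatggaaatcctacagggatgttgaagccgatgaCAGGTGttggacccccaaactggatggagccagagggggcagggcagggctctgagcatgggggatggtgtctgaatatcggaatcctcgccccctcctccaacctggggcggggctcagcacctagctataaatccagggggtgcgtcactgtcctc
*Tnnc1*, chr14:31208062-31208311, plus strand: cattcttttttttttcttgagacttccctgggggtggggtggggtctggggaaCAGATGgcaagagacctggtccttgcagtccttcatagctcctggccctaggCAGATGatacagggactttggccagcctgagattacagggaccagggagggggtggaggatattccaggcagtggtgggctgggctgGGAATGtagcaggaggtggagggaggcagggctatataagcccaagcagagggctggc
*Tpm3*, chr3:90072401-90072650, plus strand: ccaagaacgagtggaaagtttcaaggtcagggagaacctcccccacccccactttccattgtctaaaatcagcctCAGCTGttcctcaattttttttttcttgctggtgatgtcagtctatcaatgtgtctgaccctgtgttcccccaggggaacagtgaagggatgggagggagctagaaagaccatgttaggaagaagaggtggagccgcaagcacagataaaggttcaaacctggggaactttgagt

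These windows held 4, 1, 2 and 1 E-boxes, and 66.2% of 32851 promoter windows of this length held at least 1. The MCAT element was present once in these 4 windows, in *Tnnc1*, and 12.6% of windows held it. The windows of *Tnnc2*, *Tpm1* and *Tpm2*, not printed, held 2, 1 and 1 E-boxes, and that of *Tpm1* held the MCAT element once. These motifs were thus not particular to the slow set. The letters CACCC, on either strand and not in capitals, occurred 2, 2, 3 and 1 times in the 4 printed windows, with 52% of windows holding them. Such matches are letters in a window and describe no binding.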

How the data were processed

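Two-colour Agilent arrays of 24 mice were analysed, 12 per group, with groups taken from the sample titles. Per the file headers the authors scanned them with Agilent Feature Extraction 10.7.3.1, which gives a Cy3 and a Cy5 intensity, a local background and flags per spot, and names probe positions on mm9. The deposited value table holds log2 intensities with array medians of 6.57 to 6.58, so it is scaled between arrays and is no ratio. Its exact normalisation is not given in the sources used here. Dye labels of 5 Hypox samples are numbered on from Cy5 and Cy3 and were read as Cy5 for the mouse and Cy3 for the pool, as the descriptions say.

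Of 59305 non-control spots 55681 probes resulted. Outlier-flagged readings (7260) were left out, and none was saturated. Mean signals were corrected with normexp (offset 50) and loess within arrays (limma 3.58.1, R 4.3.3). Tested probes had a mean Cy5 signal more than 2 times their local background, with values missing on no more than 4 arrays. Hypox minus Norm was fitted with limma's lmFit and eBayes without covariates, at an unadjusted 0.05, which the study used, and with Benjamini-Hochberg adjustment over 14503 probes. The number of arrays limits the precision. Each array is 1 mouse. The fit was tested on simulated data.

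The members, gene lists and tests were chosen with earlier results of these data known. Named were all members, from each list the genes past the unadjusted threshold (at most 6) with *Myh7*, *Myl2*, *Myh4* and *Mylpf*, the 8 genes most like the slow troponins and the 5 most like the fast ones. Alternatives were the scanner software's ratios, no background correction, median centring, the Cy5 channel by itself, the authors' deposited values, the t-test of the methods, other filters and probe rules, slide and replicate blocks, array weights, and leaving out each array or slide.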

Additional observations from a re-analysis of the deposited data

How the results depend on the processing

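Main counts were 2 member genes higher, 0 lower and 0 after adjustment, with 2005 probes called (135 after adjustment) of 14503. In the scanner software's ratios 4 members were higher and 1 passed adjustment, with 1999 probes called and 247 past adjustment. There the leading probes of *Tnnt3* and *Tpm1* reversed to 0.20 and 0.26. Without background correction, with the slide as a block and with array weights 1 member (*Tnni1*) passed adjustment, beside 152, 174 and 691 of all probes. Median centring left 0 members higher, 59 probes called (96.6% higher, against 53.6% in the main processing) and 0 after adjustment, with 0 higher and 0 lower in the thin filament, slow, fast and regulator lists. Cy5 alone called 9.22% of all probes, with 68 past adjustment, 3 members higher (0 after adjustment) and 2 lower fast genes. The deposited values gave 974 probes called (43.1% higher) and 1 after adjustment by limma, and 1042 (40.9% higher) and 0 by the methods' t-test, under which 1 member was higher. That t-test on the loess ratios gave 85 past adjustment, and no filter on dim probes gave 4487 called of 55681 and 45 past adjustment. The slide block called 2272 probes (15.7%) and gave 4 lower fast genes and 4 lower regulators. Leaving out 1 array gave 2 to 2 members higher, 0 to 1 after adjustment, 1717 to 2269 probes called and 41 to 233 after adjustment, and leaving out 1 slide gave 1 to 2 members higher, 0 to 1 after adjustment, 1422 to 2269 called and 1 to 96 after adjustment. The cause of these changes was not tested.

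Titles of both groups share the numbers 1 to 12. Same-numbered arrays had deviations correlated at -0.20 to 0.41 with a median of 0.00021, over 0.1 in 3 of 12 pairs, so the numbers were not taken to pair mice. With the replicate number as a block *Tnni1* had a limma *P*-value of 0.00134 (adjusted 0.0908) and *Tnnc1* 0.0385. That block called 14.2% of all probes (50 past adjustment), with 2 members higher, 2 lower thin filament genes and 3 lower fast genes. Over the 14 other settings *Tnni1* stayed past the unadjusted threshold in 13, its *P*-value being 0.053 with median centring, and *Tnnc1* in 12, missing it with median centring (0.140) and with the methods' t-test on the deposited values (0.0594). The number of arrays limits the precision. The SE of the 3 leading fast troponin probes was 0.35 to 0.38 in the loess ratios, 0.072 to 0.10 in the scanner software's ratios and 0.12 to 0.16 in Cy5 alone, so the width of their intervals depends on the processing.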
